A study of Mus musculus with 3 samples.

Results

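Genes whose products assemble, cap, cut, decorate or anchor actin filaments were followed while cultured mouse bone marrow cells formed osteoclasts. The members were chosen by gene symbol, with earlier results of these data known: subunits of the Arp2/3 complex and the WASP, WAVE and WASH proteins that switch it on, formins, Ena/VASP proteins, profilins, cofilins, cyclase-associated proteins, coronins, capping proteins, tropomodulins, tropomyosins, cortactin, drebrins, fascin, L-plastin and the ERM proteins (ezrin, radixin and moesin). This gave 54 genes with 119 probe sets, out of 12393 genes with 20380 probe sets that carry 1 gene symbol. Each of 3 Affymetrix arrays measured 1 culture of C57/BL6 bone marrow cells. All cultures had first received human M-CSF (50 ng/ml), the growth factor of macrophages, for 3 days. They then received human RANKL (150 ng/ml), the cytokine that drives osteoclast formation, for 0 h (labelled precursor), 24 h (differentiating precursor) or 72 h (osteoclast). Every later culture had RANKL, so its effect and that of time in culture cannot be told apart.

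Actin filaments grow either as branched networks, which the Arp2/3 complex starts on the side of an existing filament when a WASP family protein activates it, or as straight cables, which formins and Ena/VASP proteins lengthen at the tip. Profilin delivers actin monomers, cofilin takes filaments apart, capping protein stops growth, and tropomyosins coat the filament and decide which other proteins can bind. Osteoclasts build podosomes, small columns of branched actin, and pack them into a ring that seals the bone surface during resorption. Cortactin sits in the podosome core, and ERM proteins tie actin to the membrane.

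Each array's signals were scaled to its own median over gene probe sets, because the deposited medians differed (36.7, 60.9 and 62.7 in order of time). A floor of 29.6 signal units replaced lower values, a gene was read from its probe set with the highest mean log2 signal, and a gene was called higher or lower at a difference of at least 2-fold. With 1 array per time there was no replicate check and no test. The technical error, taken from pairs of probe sets for the same gene, was a factor of 1.33 (24 h against 0 h), 1.41 (72 h against 0 h) or 1.28 (72 h against 24 h). It leaves out differences between cultures. The label osteoclast was checked against markers: 9 of 9 osteoclast markers were called higher at 72 h than at 0 h, and their summed signal was 33298 at 72 h against 1929 at 0 h. The ratio of 3' to 5' signal of the beta-actin control probe sets, a measure of RNA integrity, had values of 1.59, 1.38 and 1.20 for the arrays of 0, 24 and 72 h. Its part in the results below was not tested.

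Most members of the core actin machinery stayed within 2-fold, as did most of all measured genes. At 72 h against 0 h, Tpm1, Tpm2, Cttn, Enah and Cfl2 were over 4-fold higher and Coro1a and Diaph2 over 4-fold lower. Between 2-fold and 4-fold, Tpm4, Dbn1 and Fscn1 were higher and Evl, Washc2, Washc4 and Coro2a lower. Of the 54 members, 41 were above the floor on all 3 arrays, 5 on 1 or 2 arrays and 8 on none, which were Wasf1, Wasf3, Cap2, Coro2b, Capza3, Tmod1, Tmod2 and Tmod4. At 24 h against 0 h, 2 of 45 measured members were called higher (4.44%, against 13.2% of all measured genes) and 3 lower (6.67%, against 9.22%). At 72 h against 0 h, 8 of 46 were higher (17.4%, against 12.5% of all) and 6 lower (13.0%, against 12.8%). Between 24 and 72 h, 7 of 46 were higher at 72 h (15.2%, against 6.92%) and 3 lower (6.52%, against 10.0%). On the deposited scale the counts at 72 h against 0 h were 14 higher (29.8%, against 34.95% of all measured genes) and 2 lower (4.26%, against 5.33%). No count was tested against its background. At 72 h against 0 h the members' shares lay near those of all genes, and the share higher at 72 h than at 24 h was above that of all genes. With probe sets averaged this last share was 9.09%, against 7.05% of all genes, and 3 of its 7 calls held under every alternative. In bulk RNA such as this, fewer cells of a type and less RNA per cell cannot be told apart. Altogether 16 members were called in at least 1 comparison by the probe set used. A further 28, above the floor on every array, stayed within 2-fold throughout, up to a factor of 1.82 for Was. The matching counts over all genes were not computed, so these describe the members alone. The members' median log2 difference was 0.02 at 24 h against 0 h, beside 0.12 over all measured genes, and -0.08 beside -0.01 at 72 h against 0 h. The sign of these medians depends on the scale. On the deposited scale the members' medians were 0.77 and 0.65, beside 0.78 and 0.68 for all genes, and after quantile normalization they were -0.17 and -0.22, beside 0.00013 and -0.06. The members' median was below that of all genes in both comparisons under the main setting and all 8 alternatives. The differences were -0.02 to -0.17 at 24 h and -0.03 to -0.16 at 72 h. Both comparisons use the same array of 0 h. At 72 h against 24 h the members' median was above that of all genes in each setting, by 0.09 to 0.14. None of these differences was tested.

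**Figure D1:**
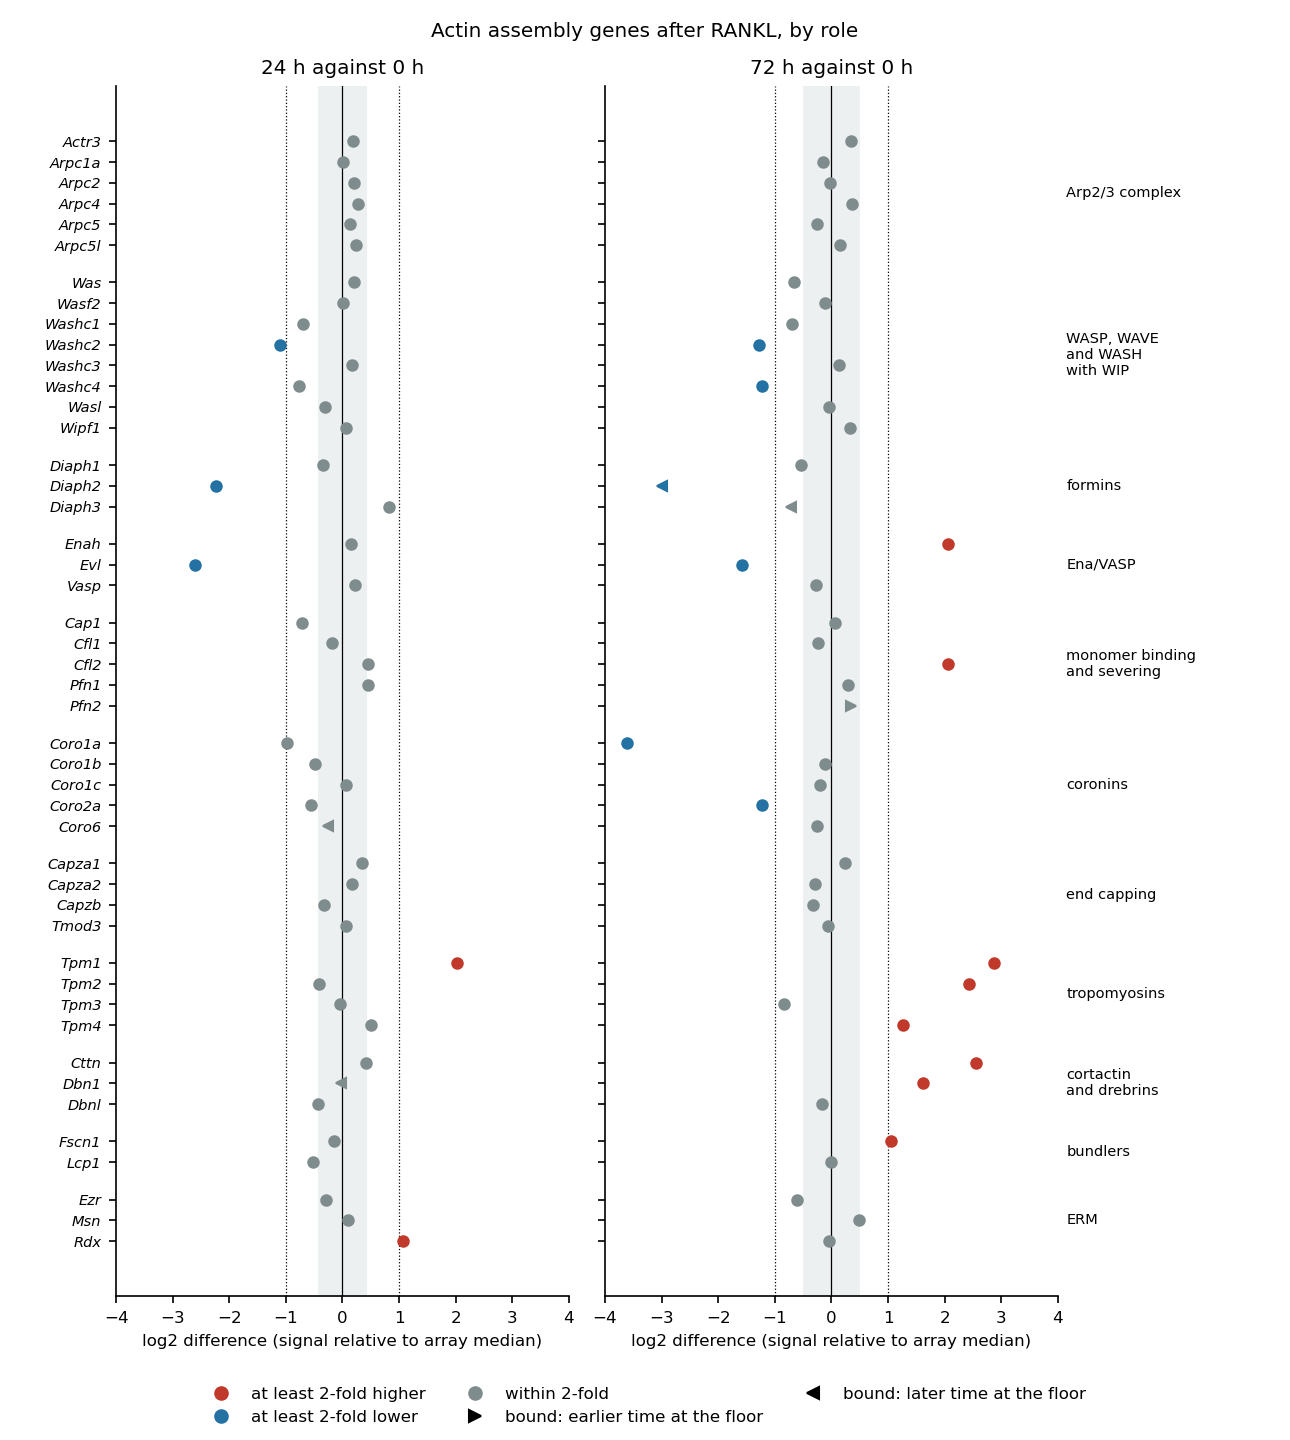
Each row is 1 of the 46 members above the floor on at least 1 array, grouped by role, and the x axis is the log2 difference of signals relative to the array median at 24 h (left) or 72 h (right) against 0 h. The grey band is the technical error (1 SD), dotted lines mark 2-fold, and triangles are bounds. At 72 h the points outside 2-fold are 8 on the right, among them 3 tropomyosins and Cttn, and 6 on the left, among them Coro1a at -3.61 and Diaph2 as a bound, while the Arp2/3 subunits and capping proteins stay inside.

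Of the Arp2/3 complex, the branching machine itself, 6 subunits were measured, and by the probe set used they stayed within 2-fold in all comparisons. Their factors were at most 1.21 at 24 h and 1.28 at 72 h against 0 h. Actr2 and Arpc3 were not among the members, and Arpc1b was left out because its 2 probe sets also name Gm5637. The complex was thus read in part. Arpc2, one of the subunits that hold the branch to the mother filament, had signals of 4138 at 0 h, 4780 at 24 h and 4083 at 72 h. Actr3, an actin-related subunit, had 2247, 2568 and 2846 in the same order. The median log2 difference of the 6 subunits was 0.20 at 24 h and 0.07 at 72 h, but -0.03 and -0.08 after quantile normalization. On the deposited scale it was 0.93 and 0.84, beside 0.78 and 0.68 for all genes, and there Arpc4 was called higher at both times and Actr3 at 72 h. Of the other subunits, Arpc5l had a second probe set, matching several transcripts, that was 2.15-fold lower at 72 h than at 0 h, where the probe set used differed by a factor of 1.11.

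Among the activators of Arp2/3, those of the cell surface stayed within 2-fold and 2 subunits of the endosomal WASH complex were lower. Wasf2, a subunit of the WAVE complex that drives lamellipodia, had 1318, 1333 and 1223 at 0, 24 and 72 h. Was, the blood cell protein WASP needed for podosomes, had 535, 619 and 339, a factor of 1.58 below 0 h at 72 h, and its partner Wipf1 (WIP) had 519, 542 and 650. The broadly expressed Wasl (N-WASP) differed by at most 1.24. The WASH complex does the same task on endosomes, where it helps to sort cargo. Its subunit Washc2 had 1229, 574 and 506, which made it 2.14-fold lower at 24 h and 2.43-fold lower at 72 h than at 0 h. Its 3 other probe sets differed in the same direction at both times, past 2-fold in 2 of them at 24 h and in 1 at 72 h. Washc4 had 317, 185 and 135 and was 2.35-fold lower at 72 h, a call lost without multi-transcript probe sets (log2 difference -0.21). Washc1, the subunit that contacts Arp2/3, was 1.62-fold below 0 h at both times, and Washc3 had 317, 356 and 346. The calls of Washc2 and Washc4 were lost on the deposited scale.

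Among the formins and Ena/VASP proteins, which lengthen straight filaments, Diaph2 and Evl were lower and Enah was higher. Diaph2, a formin, had 235 at 0 h, 50.1 at 24 h and 15.4 at 72 h, under the floor, and was thus 4.69-fold lower at 24 h and at least 7.94-fold lower at 72 h than at 0 h. It has 1 probe set. Diaph3, a formin tied to cell division, had 48.4, 85.1 and 15.9 and was at least 2.88-fold lower at 72 h than at 24 h, within 2-fold under the highest floor tried, the 60th percentile. Diaph1 stayed within a factor of 1.45. Of the Ena/VASP proteins, Evl, the form typical of blood cells, had 216, 35.5 and 71.9, so that it was 6.08-fold lower at 24 h and 3.00-fold lower at 72 h than at 0 h. Its low point was at 24 h, and its signal at 72 h was 2.03-fold above that. That partial return was within 2-fold by its other probe set (at least 1.35-fold) and under 3 alternatives, and the call against 0 h at 72 h was lost on the deposited scale. Enah (Mena), a form that promotes cell motility, had 84.4, 93.9 and 353, and was 4.18-fold higher at 72 h than at 0 h and 3.76-fold higher than at 24 h. The next probe set gave 3.94-fold at 72 h against 0 h. Its other 2 probe sets were under the floor on at least 2 arrays, and averaging all 4 lost both calls. Vasp, the namesake of the family, had 846, 981 and 700 and stayed within 2-fold.

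Among proteins that handle monomers or cut filaments, Cfl2 was higher, and the other measured members stayed within 2-fold by the probe set used. Cfl2, the cofilin named for muscle, had 103, 140 and 431 at 0, 24 and 72 h, and was 4.18-fold higher at 72 h than at 0 h and 3.07-fold higher than at 24 h. Its other probe set was 1.67-fold above 0 h, within 2-fold, at 72 h. Cfl1, the general cofilin, had 5436, 4794 and 4590, and Pfn1, the general profilin, had 2527, 3451 and 3091. Cap1, which recycles monomers with cofilin, had 1467, 892 and 1536, with its lowest signal at 24 h, and its other probe set was 2.04-fold higher at 72 h than at 0 h. Pfn2, the profilin best known from neurons, was above the floor at 72 h alone, and 1 of its 3 probe sets was at least 3.13-fold higher there than at 0 h, while the one used differed by a factor of at least 1.26.

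Coronins, which shield filaments and direct cofilin and Arp2/3, were lower in 2 of 5 measured members at 72 h than at 0 h. Coro1a, the coronin of blood cells, had signals of 2643 at 0 h, 1348 at 24 h and 216 at 72 h. It was 1.96-fold below 0 h at 24 h, just within 2-fold, then 12.3-fold lower at 72 h than at 0 h and 6.25-fold lower than at 24 h. Its next probe set gave 2081, 700 and 183, which was 2.97-fold lower at 24 h and 11.4-fold lower at 72 h. By both, the signal was lower at 72 h than at 24 h and lower at 24 h than at 0 h. Coro2a was 2.33-fold lower at 72 h (38.4 against 89.6 at 0 h), close to the floor, a call lost on the deposited scale and with the floor at the 60th percentile. Coro1b had 1141, 813 and 1049. Coro1c, a coronin of many tissues, stayed within 2-fold by the probe set used, which matches several transcripts (879, 921 and 766). Its next 2 probe sets were 2.66-fold and 2.41-fold higher at 72 h than at 0 h, so its course depends on the probe set.

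Transcripts of proteins that cap filament ends stayed within 2-fold. Capza1, Capza2 and Capzb are the subunits of capping protein, and Tmod3 is the tropomodulin of non-muscle cells. By the probe set used, their factors were at most 1.27 at 24 h and 1.25 at 72 h against 0 h. Capzb had signals of 3921, 3113 and 3144 in order of time, and Tmod3 had 382, 401 and 367. Another probe set was 1.68-fold above 0 h at 72 h for Capzb and 1.42-fold for Tmod3. On the deposited scale Capza1 was called higher at both times.

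Of the 4 tropomyosins, 3 were higher at 72 h than at 0 h, and Tpm1 had the largest increase of all members in that comparison. Tpm1 had 198 at 0 h, 808 at 24 h and 1443 at 72 h, which was 4.08-fold higher at 24 h and 7.30-fold higher at 72 h than at 0 h. It was the tropomyosin already called higher at 24 h. A second probe set gave 8.23-fold at 72 h, whereas the dimmest, near the floor, was 1.34-fold below 0 h. Averaging the 3 probe sets lost the call at 24 h. Tpm2, like Tpm1 abundant in contractile cells, had 343, 259 and 1847, and was 5.38-fold higher at 72 h than at 0 h and 7.14-fold higher than at 24 h. By this probe set its increase lay between 24 and 72 h. Tpm4, a tropomyosin of non-muscle cells, had 1181, 1671 and 2848 and was 2.41-fold higher at 72 h than at 0 h, which quantile normalization brought within 2-fold. Tpm3 had 3326, 3219 and 1863, a factor of 1.79 below 0 h at 72 h (2.09 after quantile normalization), and 1 of its 4 other probe sets was 2.35-fold lower at 72 h than at 0 h.

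Cortactin (Cttn), which stabilizes Arp2/3 branches in the podosome core, had 238, 317 and 1400.1 at 0, 24 and 72 h. It was 5.88-fold higher at 72 h than at 0 h and 4.41-fold higher than at 24 h. Each of its 4 probe sets above the floor was highest at 72 h, with log2 differences against 0 h of 2.56 to 3.05. Dbn1, the drebrin that bundles filaments in neurons and other cells, had 30.0, 24.8 and 91.8 and was 3.06-fold higher at 72 h than at 0 h, but at 0 h it was barely above the floor. With the floor at the 60th percentile, or with probe sets averaged, Dbn1 was within 2-fold. Its relative Dbnl had 352, 260 and 312. Fscn1, which packs filaments into tight bundles, had 302, 273 and 625, a 2.07-fold higher signal at 72 h than at 0 h. Its other measured probe set had 158, 115 and 137, a factor of 1.15 below 0 h at 72 h. The call of the first, at the edge of the threshold, was lost after trimmed mean scaling, after quantile normalization and when probe sets were averaged. Lcp1 (L-plastin), the bundling protein of blood cells, had 4096, 2869 and 4065. Its other probe set, with 1049, 962 and 1936, was 1.85-fold above 0 h at 72 h, within 2-fold, and 2.01-fold higher at 72 h than at 24 h.

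Of the ERM proteins, radixin alone was called by the probe set used, as higher at 24 h. Rdx had 541 at 0 h, 1140 at 24 h and 524 at 72 h, which was 2.11-fold higher at 24 h than at 0 h and 2.17-fold lower at 72 h than at 24 h. A second probe set remained high at 72 h (128, 347 and 342), and the call at 24 h was lost after trimmed mean scaling, after quantile normalization and when probe sets were averaged. Msn, the ERM protein of blood cells, had 2163, 2315 and 3021, a factor of 1.40 above 0 h at 72 h. Its other probe set was 4.17-fold higher at 72 h (366, 625 and 1525). Ezr was within a factor of 1.53 by the probe set used.

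**Figure D2:**
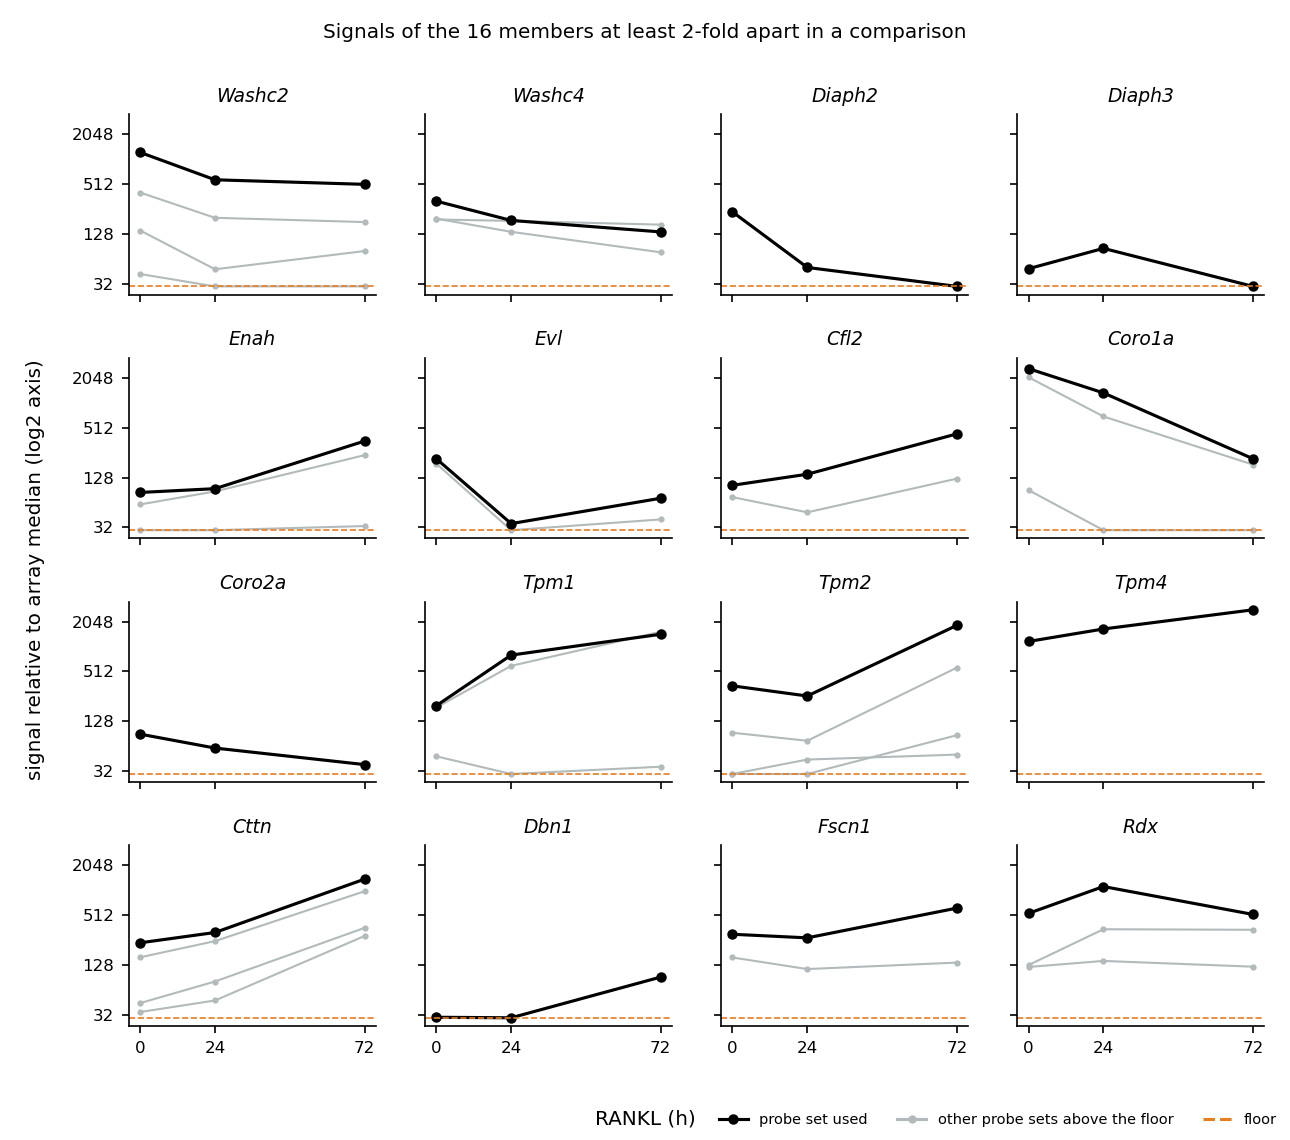
Signals relative to the array median (log2 axis) at 0, 24 and 72 h of RANKL for the 16 members called in at least 1 comparison, with the probe set used in black, others in grey and the floor dashed. Coro1a and Evl lie lower at 72 h than at 0 h in each probe set shown, and Cttn higher in each, while Rdx peaks at 24 h and 1 grey Tpm1 line stays near the floor.

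How far probe sets of a gene differed was a further measure of reliability. Of the 8 members called higher at 72 h against 0 h, 6 had another measured probe set, and in 4 of them at least 1 other was called the same way. For the 6 lower members this was 4 of 4. Conversely, 9 members within 2-fold by the probe set used had another that was called at 72 h against 0 h: Arpc5l, Washc1, Cap1, Pfn2, Coro1c, Tpm3, Ezr, Msn and Rdx. The matching counts over all genes with several probe sets were not computed, so it is not known how usual such differences are. Changes in the isoforms made could not be told apart from differences between probe sets.

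**Figure D3:**
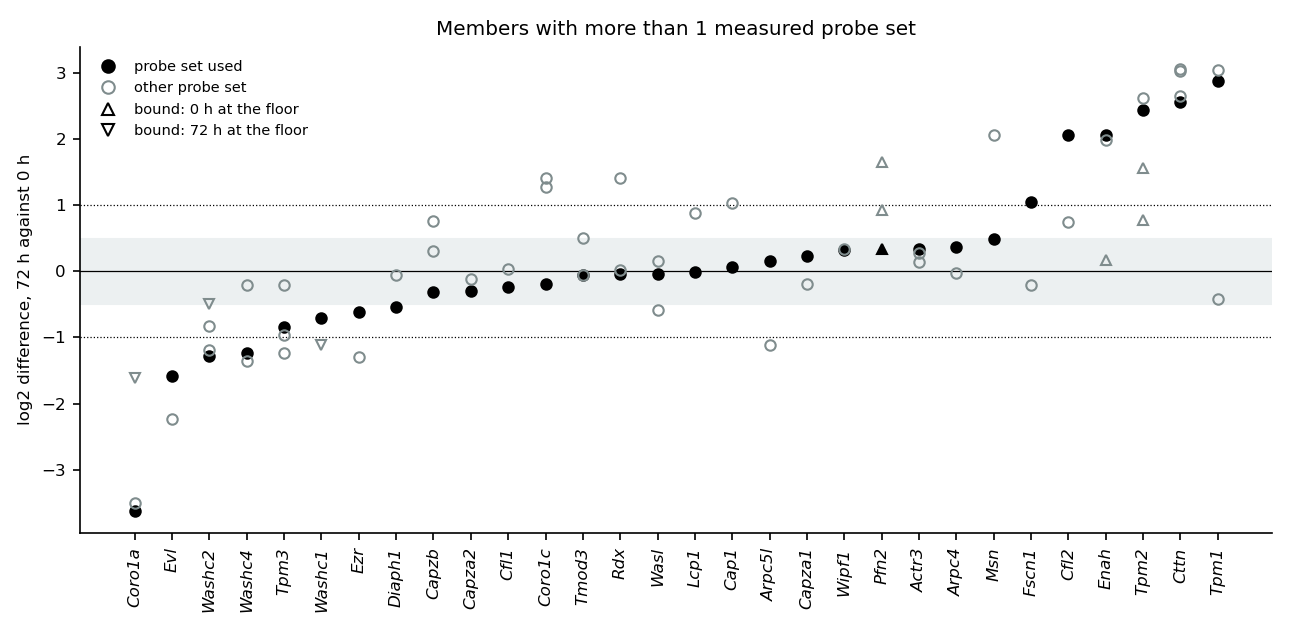
Log2 difference at 72 h against 0 h (y axis) of every measured probe set of members that have more than 1, ordered by the probe set used (filled), with bounds as triangles, the technical error as a grey band and 2-fold as dotted lines. Cttn and Coro1a lie outside 2-fold in every probe set, whereas Msn, Rdx and Coro1c have probe sets on each side of the upper line.

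The promoters of the members that moved most are shown because the data turn on these genes. Of the 7 members at least 4-fold apart between 72 and 0 h (Tpm1, Cttn, Tpm2, Enah, Cfl2, Diaph2 and Coro1a), 6 had an entry in the RefSeq promoter table (GRCm38.p6). The 250 bases before the most upstream start of each are printed 5' to 3'. Capitals mark the motifs of factors at work in osteoclasts, on either strand: TGANTCA (AP-1), GGAAA (NFAT) and TCANGTG (MITF). The CArG box of SRF, a known regulator of actin genes, was searched too.
Tpm1, chr9:67049214-67049463, minus strand: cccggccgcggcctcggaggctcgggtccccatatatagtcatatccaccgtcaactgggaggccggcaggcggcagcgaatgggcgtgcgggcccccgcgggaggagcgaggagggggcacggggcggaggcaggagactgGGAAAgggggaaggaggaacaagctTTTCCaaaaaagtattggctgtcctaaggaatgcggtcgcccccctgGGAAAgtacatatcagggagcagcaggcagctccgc
Tpm2, chr4:43523555-43523804, minus strand: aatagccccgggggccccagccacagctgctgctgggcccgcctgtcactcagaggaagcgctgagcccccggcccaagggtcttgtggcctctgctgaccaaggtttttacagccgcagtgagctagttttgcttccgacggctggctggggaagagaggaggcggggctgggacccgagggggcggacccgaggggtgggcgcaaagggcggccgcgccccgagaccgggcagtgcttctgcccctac
Enah, chr1:182019981-182020230, minus strand: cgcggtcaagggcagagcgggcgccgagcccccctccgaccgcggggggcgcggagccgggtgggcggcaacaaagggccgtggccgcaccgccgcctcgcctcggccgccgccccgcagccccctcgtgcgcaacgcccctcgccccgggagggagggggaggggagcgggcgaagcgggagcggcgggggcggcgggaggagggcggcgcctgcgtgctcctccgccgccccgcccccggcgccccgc
Cfl2, chr12:54862878-54863127, minus strand: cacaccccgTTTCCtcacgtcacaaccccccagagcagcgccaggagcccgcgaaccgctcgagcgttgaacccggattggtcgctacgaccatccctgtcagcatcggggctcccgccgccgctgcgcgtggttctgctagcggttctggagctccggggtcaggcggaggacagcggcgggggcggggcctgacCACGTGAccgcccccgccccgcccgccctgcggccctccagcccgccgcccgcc
Diaph2, chrX:129749492-129749741, plus strand: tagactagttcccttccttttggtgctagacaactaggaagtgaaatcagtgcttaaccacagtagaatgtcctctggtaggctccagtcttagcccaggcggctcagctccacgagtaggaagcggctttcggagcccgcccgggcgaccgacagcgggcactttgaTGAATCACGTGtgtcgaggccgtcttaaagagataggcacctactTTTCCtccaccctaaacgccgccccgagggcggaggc
Coro1a, chr7:126704817-126705066, minus strand: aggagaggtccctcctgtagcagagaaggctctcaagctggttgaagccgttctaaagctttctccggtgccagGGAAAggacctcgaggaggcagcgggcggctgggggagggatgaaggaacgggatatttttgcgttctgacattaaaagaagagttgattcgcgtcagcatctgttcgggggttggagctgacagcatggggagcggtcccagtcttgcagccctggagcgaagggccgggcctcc
Tpm1 held 3 NFAT matches, Cfl2, Diaph2 and Coro1a 1 each, and Tpm2 and Enah none of the motifs. Cfl2 also held a MITF match. Among these 6, Diaph2 was the one with an AP-1 match, which overlaps its MITF match (TGAATCACGTG). Over all 27025 genes with an entry, 55.6% of such windows held the NFAT letters, 6.85% AP-1, 12.1% MITF and 1.41% the CArG box. Among the 7 members called higher at 72 h that had an entry, the NFAT letters were found in 2, MITF in 1 and the others in none. Among the 6 lower ones NFAT was found in 5, MITF in 2 and AP-1 in 1. A match is a string of letters and not a bound site.

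In the wider actin pathway, 42 of 58 listed genes were on the array with 1 symbol and 41 were measured. At 72 h against 0 h, 6 were called higher and as many lower (median -0.11 on the log2 scale), beside the 12.5% and 12.8% called among all genes. The actins themselves stayed within 2-fold on every scale tried, with Actb at 8884, 9759 and 8255 and Actg1 at 8223, 7462 and 8456 at 0, 24 and 72 h. Among small GTPases that steer actin, Rac2, the Rac of blood cells, had 1045, 683 and 2772, which was 2.65-fold higher at 72 h than at 0 h, and Rhoc had 140, 142 and 433, or 3.10-fold. Rac1, Cdc42 and Rhoa stayed within 2-fold. Vav1, an activator of Rac in blood cells, was 3.16-fold lower at 72 h, and Limk1, the kinase that switches cofilin off, at least 3.10-fold lower, both within 2-fold on the deposited scale (1.85 and 1.89). Zyx and Plek, found at adhesions and in platelets, were 3.59-fold and 3.48-fold lower at 24 h than at 0 h.

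Some pairs of related genes differed in their course. The pairs were picked after their values were seen, so they are a description. Hcls1, the cortactin relative of blood cells, was 2.04-fold lower at 72 h than at 0 h (331 against 674), while Cttn was 5.88-fold higher. Nckap1, a WAVE complex subunit of many tissues, was 3.93-fold higher (415 against 106), and its blood cell counterpart Nckap1l differed by a factor of 1.88 in the other direction. Pls3, the plastin of non-blood cells, was 4.48-fold higher (426 against 95.1), and Lcp1 differed by a factor of 1.01 by the probe set used but was 1.85-fold above 0 h by its other. Hcls1 was within 2-fold on the deposited scale (1.19) and when scaled by hybridization controls (1.95), and Nckap1l was lower by over 2-fold after trimmed mean scaling (2.05) and quantile normalization (2.18). Cttn, Nckap1 and Pls3 were called higher on all 5 scales.

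**Figure D4:**
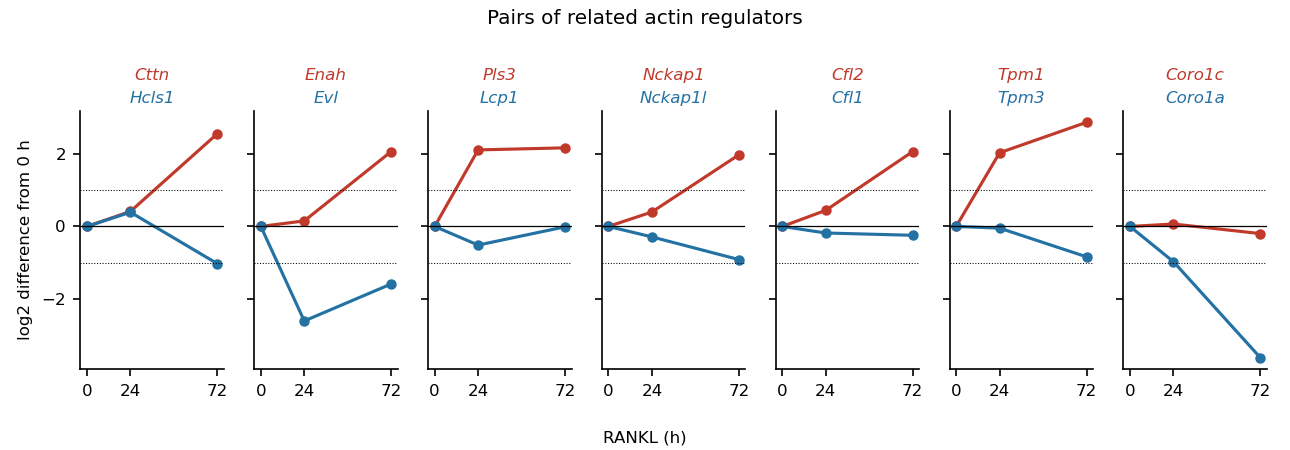
Log2 difference from 0 h (y axis) at 24 and 72 h of RANKL for 7 pairs of related genes, 1 panel each, the first named in red and the second in blue, with dotted lines at 2-fold. In 6 panels the red line ends above 2-fold at 72 h and the blue line does not; in the panel of Coro1c and Coro1a the blue line ends at -3.61.

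Markers of other cells moved with these groups. Beside the higher members, 3 of 3 measured smooth muscle markers were called higher at 72 h than at 0 h: Tagln was 12.6-fold higher (1764 against 140), Acta2 3.65-fold (3933 against 1077) and Cnn1 at least 6.86-fold. The fourth, Myh11, was under the floor on all arrays. The 4 summed to a signal of 1228 on the array of 0 h, 1118 on that of 24 h and 5917 on that of 72 h. Of 5 stromal and osteoblast markers on the array, 3 were higher and 0 lower, the collagens Col1a1, Col1a2 and Col3a1, and the 5 together gave 1985, 2210 and 6886 in order of time. Like Tpm2, Enah, Cfl2 and Cttn, these markers had no call at 24 h against 0 h. Of 8 measured osteoclast markers, 6 were already higher at 24 h. Oscar and Itgb3 were not, and were called higher at 72 h against 0 h. Calcr, a further osteoclast marker, was above the floor at 72 h alone and was called higher there. Tpm1 was called higher at 24 h, when the smooth muscle and stromal lists had 0 calls. Skeletal muscle markers had no call, and 3 of their 4 were under the floor on all arrays.

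Beside the lower members, 8 of 8 neutrophil and precursor markers were lower at 72 h than at 0 h, with summed signals of 17909.5, 12655 and 1306 in order of time. As a factor, Coro1a, too, had its larger decrease after 24 h, by the probe set used (1.96, then 6.25) and the next (2.97, then 3.82). In signal units the probe set used had already fallen from 2643 to 1348 at 24 h, and was 216 at 72 h. Its dimmest probe set was under the floor at 24 and 72 h. Megakaryocyte and platelet markers were lower in 5 of 5 at 24 h and at 72 h (sums of 8824, 1719 and 800.3 in order of time). Evl, Diaph2 and Washc2 were also lower at both times, and so were 8 of 10 macrophage markers. From 24 to 72 h, however, Evl rose 2.03-fold by the probe set used, while 5 of 5 megakaryocyte and platelet markers had lower signals. Under the floor on all arrays were 3 of 4 B cell markers, 3 of 4 T and NK cell markers, 2 of 2 erythroid and 3 of 4 endothelial markers. The exception with a call was Cd4, at least 2.04-fold lower at both later times than at 0 h (60.3). The part of other cells in the members' changes was not tested.

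**Figure D5:**
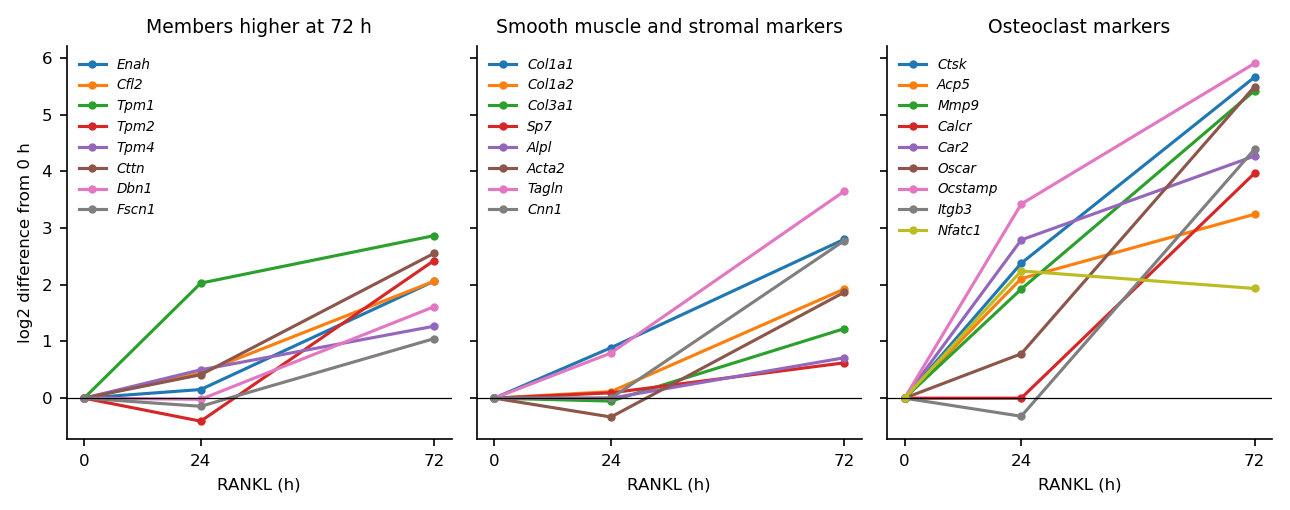
Log2 difference from 0 h (y axis) at 24 and 72 h for the 8 members higher at 72 h (left), the smooth muscle and stromal markers above the floor on at least 1 array (middle) and the 9 osteoclast markers (right). Except for Tpm1, the members and the middle group lie within 2-fold at 24 h, while 6 osteoclast markers are already higher there; values starting at the floor, such as Calcr and Cnn1, are bounds.

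Over the 7164 genes above the floor on all 3 arrays, the 5 genes outside the members whose 2 differences from 0 h lay nearest to those of Cttn were Grb10, Slc16a7, Clybl, Pkp2 and Acad11. Their factors at 72 h against 0 h were 5.35 to 6.32, and the distance from Cttn was 0.02 to 0.25 on the log2 scale. This likeness rests on 3 arrays.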

How the data were processed

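Gene expression was measured on 3 arrays, 1 per time of RANKL (0, 24 and 72 h). The deposited values are intensity signals on a linear scale, made by the authors with MAS5 per the submitters' processing notes; the version, the scaling and a genome build are not given in the sources used here. Of 22626 gene probe sets (64 control probe sets were left out), the platform annotation of 2016 named 1 gene for 20380, several for 691 and none for 1555. The 2 probe sets that name Arpc1b together with another gene were not used. All 119 member probe sets matched a RefSeq gene by identifier. Log2 signals were centred on each array's median over gene probe sets and brought to the mean level of the arrays. The floor was the 40th percentile of all values (29.6, or log2 4.89). Genes with neither array of a comparison above this floor were left out of it. "At least" marks a bound, given where 1 of the arrays was at the floor.

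The technical error is the SD over genes (2702 to 2785) of the difference between the 2 brightest probe sets above the floor on both arrays, divided by the square root of 2 (log2 values of 0.41, 0.49 and 0.36 in the order given for the factors). The number of arrays limits the precision. No p-value was computed. Members called in a comparison and the brightest member of each role are named with their signals, and other members by factors; signals of further members were added after their values were seen. The members and lists were chosen with earlier results of these data known. The calculation was tested on simulated data. Alternatives were the deposited scale, a 2% trimmed mean, quantile normalization, 18 hybridization control probe sets, floors at the 20th and 60th percentiles, averaged probe sets, and leaving out multi-transcript probe sets. Python 3.11.15, numpy 2.4.6, pandas 2.3.3 and matplotlib 3.10.9 were used.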

Additional observations from a re-analysis of the deposited data

How the results depend on the processing

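Of the 48 recomputed counts of called members (6 counts under 8 alternatives), 38 stayed within 1.5 times the reported count and 10 did not. On the deposited scale, where all genes shift upward by 0.73 (24 h) and 0.77 (72 h) on the log2 scale, 9 members were higher at 24 h (20.5%, against 39.0% of all genes) and 14 at 72 h (29.8%, against 34.95%) against 0 h, and 2 were lower at 72 h against 0 h (4.26%, against 5.33%). Trimmed mean scaling and quantile normalization each left 1 member higher at 24 h against 0 h (2.22%, against 9.13% and 10.1% of all genes). Quantile normalization gave 5 lower there (11.1%, against 11.4%). With the floor at the 20th percentile, 5 members were lower at 24 h against 0 h (9.43%, against 11.9% of all genes). At 72 h against 24 h, 5 were lower (9.80%, against 11.7%). With probe sets averaged, 0 members were higher at 24 h against 0 h, by the 2-fold rule (against 12.9% of all genes). At 72 h against 24 h, 4 were higher with probe sets averaged (9.09%, against 7.05%). Where the cause of a shift is not the rescaling or floor itself, it was not tested. Under all 8 alternatives Tpm1, Tpm2, Cttn and Cfl2 kept their call of higher and Coro1a and Diaph2 their call of lower at 72 h against 0 h. Evl and Diaph2 kept theirs at 24 h against 0 h. Of the other recomputed values, 1078 moved by less than the technical error and 148 by more, and no called difference changed sign. Dim members such as Dbn1, Coro2a and Diaph3 lie near the floor, where signals limit what can be measured. No paired analysis was possible because each time has 1 array.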
